A study of Mus musculus with 6 samples.

Results

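The vascular endothelial growth factor (VEGF) and angiopoietin systems were examined in nascent blood cells of the mouse embryo through 10 genes. They were the VEGF receptor genes Kdr, Flt1 and Flt4, the Tie receptor genes Tek and Tie1, the VEGF genes Vegfa, Vegfb and Vegfc, and the angiopoietin genes Angpt1 and Angpt2. These 10 were taken by name from a list of receptors and ligands, out of 47517 annotated gene symbols. RNA was sequenced from C57BL/6 embryos at embryonic day 10.5 that carried the Hlf-tdTomato knock-in, a red reporter in the locus of the blood transcription factor Hlf. Cells of both groups had been freed with 0.125% collagenase (1 h at 37 °C) and sorted as positive for the reporter and for the stem cell factor receptor c-Kit and negative for the leukocyte protein CD45. Of the 6 libraries, each made from a lysate of 100 cells, 3 held cells of the caudal-half region (called caudal cells) and 3 held cells of the yolk sac. Both groups carried the same reporter allele, and no group without it was analysed here. Whether libraries of 1 tissue stem from different embryos is not stated in the labels. The p-values therefore measure the spread between libraries, which may be technical.

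VEGFs act through 3 receptor tyrosine kinases. Kdr (VEGFR2) carries most of the signal in endothelium, Flt1 (VEGFR1) binds Vegfa tightly and also exists as a soluble decoy, and Flt4 (VEGFR3) is the receptor of Vegfc and is known from lymphatic vessels. Tek (Tie2) is activated by Angpt1, while Angpt2 often opposes Angpt1, and Tie1 is a partner of Tek. Blood stem cells of the embryo arise from an endothelium that carries these receptors, and Tek and Kdr are also found on blood stem and progenitor cells. Values are the deposited TPM, an expression level corrected for gene length and scaled within a library, so that levels of different genes can be set side by side. The values used here are per gene, so the soluble and membrane forms of Flt1 and the splice forms of Vegfa cannot be told apart.

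To show the DNA in front of the receptor genes, the bases before the start sites of Kdr, Flt1 and Tek are given 5′ to 3′ from RefSeq (GRCm38.p6). Capitals mark matches on either strand to CCGGAA or AGGAAG, motifs of ETS factors, a family of transcription factors known to act on endothelial genes. They lie at chr5:75978459-75978705 (minus strand) for Kdr, chr5:147726012-147726261 (minus strand) for Flt1 and chr4:94739039-94739288 (plus strand) for Tek.
Kdr: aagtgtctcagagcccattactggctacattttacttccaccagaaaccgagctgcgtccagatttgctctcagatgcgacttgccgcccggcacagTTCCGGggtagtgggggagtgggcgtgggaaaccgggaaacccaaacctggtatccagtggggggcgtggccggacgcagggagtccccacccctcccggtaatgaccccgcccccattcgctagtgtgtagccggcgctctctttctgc
Flt1: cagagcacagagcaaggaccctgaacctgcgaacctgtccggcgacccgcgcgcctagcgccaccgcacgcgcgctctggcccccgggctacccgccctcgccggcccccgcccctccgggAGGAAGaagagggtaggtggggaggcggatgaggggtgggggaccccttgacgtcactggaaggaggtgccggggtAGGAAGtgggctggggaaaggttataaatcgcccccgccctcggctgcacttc
Tek: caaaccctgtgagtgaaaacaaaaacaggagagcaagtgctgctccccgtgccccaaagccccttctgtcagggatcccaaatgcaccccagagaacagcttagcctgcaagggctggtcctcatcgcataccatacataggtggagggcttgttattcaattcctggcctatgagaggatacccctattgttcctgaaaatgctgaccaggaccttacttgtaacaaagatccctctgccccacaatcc

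In the 250 bases before its RefSeq start site, Kdr held 1 match to CCGGAA and Flt1 held 2 matches to AGGAAG. Tie1 held 1 match to AGGAAG and Tek and Flt4 held 0 of either motif. For Flt4 these bases lie wholly inside the annotated gene, and for Tie1 all but 38 of them do. Among all 32851 promoters of that table, 12% held CCGGAA, 29.5% held AGGAAG and 38.2% held at least 1 of them. GC content was 61.6% for Kdr, 70.4% for Flt1, 68.4% for Flt4, 60.4% for Tie1 and 51.2% for Tek, against a median of 52.4% over all promoters. The GC box GGGCGG, a match to which 32.7% of promoters held on either strand, occurred 2 times for Kdr, 3 times each for Flt1 and Flt4 and 0 times for Tek and Tie1. A motif match describes the sequence and is not evidence of binding. The promoter table held 8 of the 10 genes, and Angpt1 and Angpt2 were not matched.

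Blood and endothelial transcripts were both present in every library, although a bulk library does not show whether the same cells carried both. Over 11 blood stem and progenitor markers, Hlf and Kit of the sort among them, the summed level was 470 to 690 TPM in the caudal cells and 198 to 474 TPM in the yolk sac. Over 15 endothelial markers it was 430 to 625 TPM against 126 to 239 TPM. At least 1 TPM in every library was reached by 10 of the 11 blood markers and 8 of the 15 endothelial markers. With no overlap, 14 of these 15 and 7 of the 11 blood markers were higher in the caudal cells, against 11.5% of tested genes. Kit, which encodes c-Kit, was at 105 to 159 TPM and 42.2 to 98.9 TPM, Hlf at 27.0 to 44.5 and 8.95 to 17.6 TPM, and Ptprc, which encodes CD45, at 3.35 to 4.72 and 2.31 to 3.47 TPM. Yolk sac replicate 2 stood apart. It held 13045 TPM over 12 markers of yolk sac endoderm, the epithelium that secretes serum proteins, against 13.5 and 736 TPM in the other yolk sac libraries and 21.8 to 31.3 TPM in the caudal cells. It also held 1607 TPM over 9 erythroid markers, against 5.54 to 17.1 TPM in the other libraries. Of the 12 endoderm markers, 6 were higher in all 3 yolk sac libraries than in any caudal library, against 4.14% of tested genes. Only 1 of the 12 reached 1 TPM in every library. Mesenchyme and smooth muscle markers summed to 46.0 to 57.3 TPM in the caudal cells and 5.27 to 7.27 TPM in the yolk sac, with Col1a1, Lum, Dcn and Cnn1 of that list of 12 under 1 TPM everywhere. Platelet and megakaryocyte markers (8 genes) summed to 180.5 to 218.5 TPM in the caudal cells. In the yolk sac they summed to 91.2 to 219 TPM, with the lowest value in replicate 2. Macrophage markers summed to 17.1 to 25.3 TPM in the caudal cells and 21.9 to 26.4 TPM in the yolk sac. In a bulk library, fewer cells of a type and less RNA per cell cannot be told apart. Differences that yolk sac replicate 2 moved by over 1.5 times are therefore also given without it.

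All 10 receptors and ligands were above 1 TPM in each of the 6 libraries, and all 10 had a higher mean in the caudal cells. On the log2 scale 62% of all tested genes had a difference in that direction. None passed the test between the tissues. With limma on log2(TPM + 1), adjusted over 16436 genes, 0 of the 10 passed in either direction, and their adjusted p lay between 0.337 and 0.928. Over all tested genes 0.347% passed as higher in the caudal cells and 0.0365% as higher in the yolk sac. At an unadjusted p under 0.05, 4 of the 10 were higher in the caudal cells (Kdr, Tek, Tie1 and Vegfc), against 7.65% of tested genes. That count was 0 to 5 when 1 library was left out, with 0 without caudal replicate 1 and 2 without caudal replicate 2. It was 1 with no filter on low values. Values did not overlap between tissues for 5 of the 10 (those 4 and Angpt1), each higher in the caudal cells, against 11.5% of tested genes in that direction. No member was higher in the yolk sac without overlap, against 4.14% of tested genes. The median difference of the 10, caudal minus yolk sac, was 0.59 on the log2 scale, against 0.09 over all tested genes. Without yolk sac replicate 2 it was 0.34, against 0.016.

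**Figure D1:**
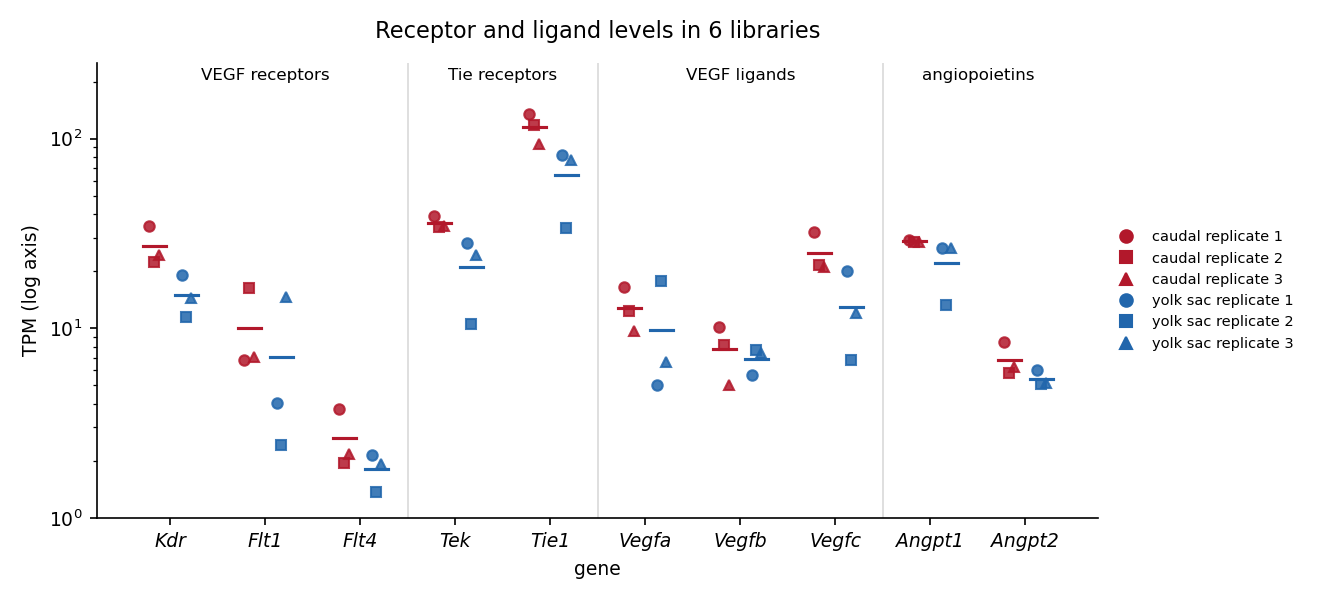
Level of each receptor and ligand gene in TPM (log axis) by gene, with 1 point per library (red caudal, blue yolk sac, symbol by replicate) and a bar at the mean of 3 libraries. Tie1 lies above the other genes in every library, and yolk sac replicate 2 (blue squares) is the lowest library for 8 of the 10 genes and the highest for Vegfa.

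Kdr, the main signalling receptor for Vegfa, was at 34.5, 22.3 and 24.3 TPM in caudal replicates 1 to 3 and at 19.2, 11.4 and 14.4 TPM in yolk sac replicates 1 to 3. Every caudal library was above every yolk sac library. The means were 27.0 ± 6.53 (SD, n = 3) and 14.99 ± 3.94 TPM (SD, n = 3), a log2 difference of 0.81 (SE 0.25, 95% confidence interval 0.23 to 1.40). That difference did not pass limma (adjusted p = 0.337), and an exact two-sided permutation test gave p = 0.1, the smallest that 3 against 3 libraries allow. The log2 difference was 0.64 without yolk sac replicate 2 (SE 0.24, limma adjusted p = 0.448). Kdr lies on chromosome 5 (75932827 to 75978458, GRCm38), 276105 bases beyond the end of Kit on the same chromosome.

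Flt1 had the largest standard error of the 10 genes. It was at 6.80, 16.4 and 7.02 TPM in caudal replicates 1 to 3 and at 4.05, 2.42 and 14.7 TPM in yolk sac replicates 1 to 3. Caudal replicate 2 and yolk sac replicate 3 were both above the other 4 libraries, so the tissues overlapped. The log2 difference was 0.67 with a wide interval (SE 0.56, 95% confidence interval -0.62 to 1.96, limma adjusted p = 0.751). It was 0.21 without yolk sac replicate 2, and 1.31 without yolk sac replicate 3 (adjusted p = 0.331). It was 0.29 without caudal replicate 2. Against yolk sac replicate 3 alone the direction was toward the yolk sac (log2 difference -0.61). Flt1 lies on chromosome 5 (147561604 to 147726011).

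Flt4, the receptor of Vegfc, was the weakest of the 10 genes, at 1.95 to 3.75 TPM in the caudal cells and 1.36 to 2.14 TPM in the yolk sac. The tissues overlapped, and the log2 difference was 0.34 (SE 0.27, limma adjusted p = 0.727). It was 0.22 without yolk sac replicate 2 and 0.13 without caudal replicate 1. Flt4 lies on chromosome 11 (49609263 to 49652739).

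Tie1 was the most abundant receptor in each library, and Tek followed by mean level in both tissues, although Kdr was above Tek in yolk sac replicate 2. Tie1 was at 134, 118 and 93.2 TPM in caudal replicates 1 to 3 and at 82.3, 33.8 and 77.4 TPM in yolk sac replicates 1 to 3. Tek, the receptor for the angiopoietins, was at 38.9, 34.4 and 34.5 TPM in the caudal libraries and at 28.2, 10.6 and 24.3 TPM in the yolk sac libraries. For both genes the lowest caudal library was above the highest yolk sac library, and yolk sac replicate 2 was well below the other yolk sac libraries.

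The log2 difference of Tie1 was 0.91 (SE 0.33, 95% confidence interval 0.15 to 1.68, limma adjusted p = 0.438). That of Tek was 0.85 (SE 0.33, 95% confidence interval 0.089 to 1.61, limma adjusted p = 0.471). The exact permutation p was 0.1 for each. Without yolk sac replicate 2 they were 0.51 (SE 0.19, limma adjusted p = 0.448) and 0.44 (SE 0.17, adjusted p = 0.458), so this library moved both by over 1.5 times. In yolk sac replicate 2 the blood marker sum was 198 TPM, against 422 and 474 TPM in the other yolk sac libraries, and the endoderm marker sum was 13045 TPM. Their part in the result was not tested. Tie1 (118471191 to 118490061) and Tek (94739289 to 94874976) lie on chromosome 4.

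Among the VEGF genes, Vegfc, the ligand of Flt4, was at 32.2, 21.6 and 21.0 TPM in caudal replicates 1 to 3 and at 19.9, 6.79 and 12.1 TPM in yolk sac replicates 1 to 3. Its tissues did not overlap. The log2 difference of 0.98 was the largest among the 10 genes (SE 0.36, 95% confidence interval 0.16 to 1.81), and it did not pass limma (adjusted p = 0.438). It was 0.62 without yolk sac replicate 2 (SE 0.28, limma adjusted p = 0.574), which moved it by over 1.5 times. Vegfc lies on chromosome 8 (54077606 to 54187096).

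Vegfa, the ligand of Flt1 and Kdr, was at 16.4, 12.4 and 9.64 TPM in caudal replicates 1 to 3 and at 4.997, 17.8 and 6.64 TPM in yolk sac replicates 1 to 3. Yolk sac replicate 2 was thus the highest of the 6 libraries for Vegfa, while yolk sac replicates 1 and 3 were below every caudal library. The log2 difference was 0.51 (SE 0.42, 95% confidence interval -0.45 to 1.47, limma adjusted p = 0.746). Without yolk sac replicate 2 it was 1.00 (SE 0.26, limma adjusted p = 0.241), while it was 0.18 without yolk sac replicate 1 and 0.33 without caudal replicate 1. The high library was also the one with 13045 TPM of endoderm markers, whereas yolk sac replicate 1, with 736 TPM of them, had the lowest Vegfa. Their part in the result was not tested. Vegfa lies on chromosome 17 (46016993 to 46032369).

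Vegfb, a ligand of Flt1, was at 5.02 to 10.2 TPM in the caudal cells and 5.66 to 7.64 TPM in the yolk sac, where the yolk sac values lay inside the caudal range. The log2 difference was 0.12 (SE 0.28, 95% confidence interval -0.53 to 0.77, limma adjusted p = 0.928), and -0.075 without caudal replicate 1. Leaving out any other single library gave 0.0025 (yolk sac replicate 1) to 0.37 (caudal replicate 3), with 0.19 for yolk sac replicate 2. Vegfb lies on chromosome 19 (6982473 to 6987651).

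Angpt1, the activating ligand of Tek, was nearly level across 5 of the 6 libraries. It was at 29.2, 28.4 and 28.5 TPM in caudal replicates 1 to 3 and at 26.5, 13.3 and 26.4 TPM in yolk sac replicates 1 to 3. Its tissues did not overlap, and the log2 difference was 0.43 (SE 0.27, limma adjusted p = 0.675). The difference was 0.12 without yolk sac replicate 2 (SE 0.16, 95% confidence interval -0.25 to 0.48). Angpt2, which often opposes Angpt1, was at 5.82 to 8.46 TPM and 5.06 to 5.99 TPM, with overlap (log2 difference 0.28, SE 0.23, limma adjusted p = 0.746). That difference was 0.14 without caudal replicate 1. Angpt1 lies on chromosome 15 (42424723 to 42676977), where its exons overlap Gm17473 on the opposite strand, and its value is uncertain because the use of strand in counting is not stated. Angpt2 lies on chromosome 8 (18690263 to 18741562).

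**Figure D2:**
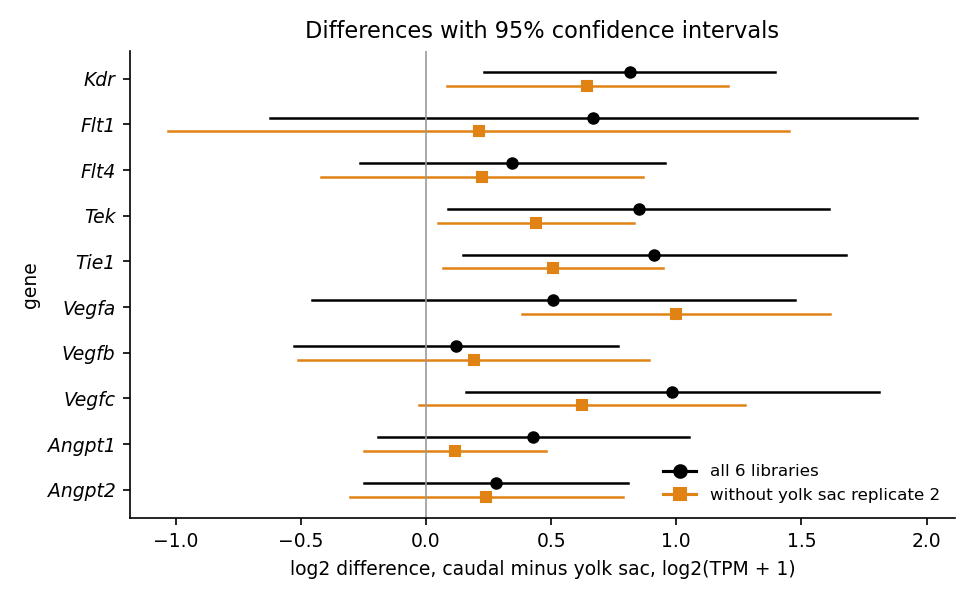
Log2 difference of each gene on the log2(TPM + 1) scale, with the yolk sac subtracted from the caudal mean (horizontal axis), and lines for limma's 95% confidence intervals (black for all 6 libraries, orange without yolk sac replicate 2). All 10 points lie to the right of 0 in both fits, and Vegfa moves from 0.51 to 1.00 without yolk sac replicate 2.

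The order of levels was nearly the same in both tissues. By mean TPM the caudal order was Tie1, Tek, Angpt1, Kdr, Vegfc, Vegfa, Flt1, Vegfb, Angpt2 and Flt4, and in the yolk sac only Tek and Angpt1 changed places. In the caudal cells the ranges of neighbours were separate between Tie1 and Tek, between Tek and Angpt1, between Vegfc and Vegfa and between Angpt2 and Flt4. In the yolk sac they were separate only between Tie1 and Angpt1 and between Angpt2 and Flt4. The ranges of the other neighbours overlapped, although Kdr was above Vegfc within each of the 3 caudal libraries. Tie1 alone made up 57.8% to 61.5% of the summed level of the 5 receptors in the caudal libraries and 56.7% to 60.5% in the yolk sac libraries, including yolk sac replicate 2 at 56.7%. That sum was 161 to 218 TPM in the caudal cells and 59.5 to 136 TPM in the yolk sac, and the sum of the 5 ligands was 70.4 to 96.5 and 50.5 to 63.1 TPM.

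Ratios within a library were compared because they depend little on how a library was scaled. The log2 ratio of Tie1 to Tek had a caudal mean of 1.64 ± 0.20 (SD, n = 3) and a yolk sac mean of 1.58 ± 0.062 (SD, n = 3), with an exact permutation p of 0.6. The log2 ratio of Angpt1 to Angpt2 was 1.94 ± 0.23 and 1.79 ± 0.48 (exact permutation p = 0.7). The log2 ratio of Flt1 to Kdr was -1.42 ± 0.91 and -1.28 ± 1.13 (exact permutation p = 0.8), and ran from -2.19 in caudal replicate 1 to 0.026 in yolk sac replicate 3. The tissues overlapped in all 3 of these ratios. With adjustment over the 8 ratios computed, each had an exact permutation p of 0.8.

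Set against endothelial markers, Kdr, Flt4, Tek and Tie1 had higher ratios in the yolk sac without overlap, and none of the ratios passed the test. The reference was the mean log2(TPM + 1) of the 15 endothelial markers, of which only 8 reached 1 TPM in every library. It was 1.77 lower in the yolk sac, more than the difference of any receptor, which fixes the sign of the ratios. Relative to it, Kdr was at 0.33, 0.33 and 0.31 in caudal replicates 1 to 3 and at 1.17, 1.49 and 1.18 in yolk sac replicates 1 to 3, on the log2 scale. The caudal minus yolk sac difference in this ratio was -0.96 for Kdr, -0.92 for Tek, -0.86 for Tie1, -1.43 for Flt4 and -1.10 for Flt1. The tissues did not overlap for Kdr, Flt4, Tek and Tie1, each with an exact permutation p of 0.1 (0.2 after adjustment over the 8 ratios), and overlapped for Flt1 (exact permutation p = 0.3).

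Because the reference fixes the sign of these differences, their keeping it when a library was left out is no support. The value of Kdr lay between -1.01 and -0.85 over the left-out libraries. With a pseudocount of 5 the differences were smaller, at -0.50 for Kdr, -0.46 for Tek and -0.32 for Tie1. The tissues then overlapped for Tek and Tie1 (exact permutation p = 0.2 and 0.3). With the mean of the 11 blood stem and progenitor markers as the reference, a choice made after seeing the data, the differences were -0.13 for Kdr, -0.096 for Tek, -0.034 for Tie1, -0.28 for Flt1 and -0.60 for Flt4. That reference was 0.95 lower in the yolk sac, again more than the difference of any receptor, which fixes these signs too. Relative to it, Tie1 was at 1.45 to 1.47 in the caudal libraries and 1.41 to 1.59 in the yolk sac libraries. Against the blood markers the tissues overlapped for Kdr, Flt1, Tek and Tie1, and Flt4 was higher in the yolk sac without overlap (exact permutation p = 0.1).

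**Figure D3:**
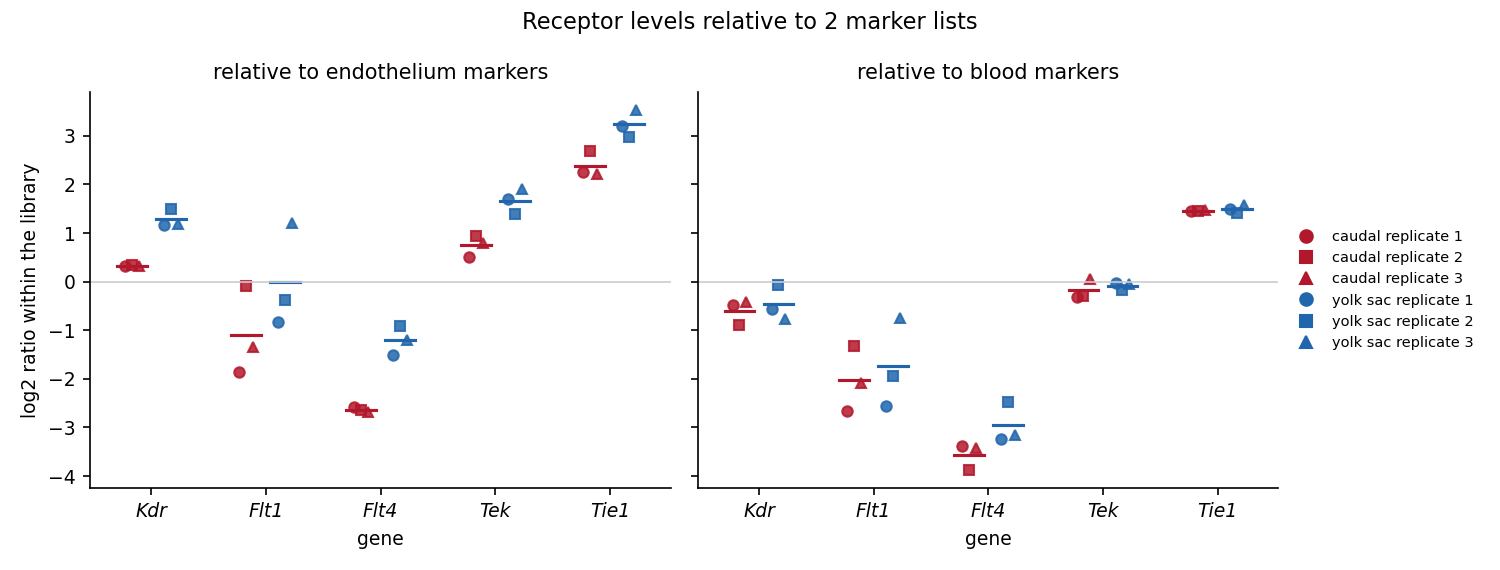
Log2 ratio of each receptor gene to the mean log2(TPM + 1) of 15 endothelial markers (left) and of 11 blood stem and progenitor markers (right), with 1 point per library (red caudal, blue yolk sac) and a bar at the mean of 3. On the left the yolk sac points lie above the caudal points for Kdr, Flt4, Tek and Tie1, and on the right those of Kdr, Flt1, Tek and Tie1 overlap.

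The genes with the most similar profiles were sought by the root mean square (RMS) difference of centred log2 values over the 6 libraries, among 8099 genes with a mean of at least 5 TPM. Nearest to Tek were Calcrl, a receptor of the adrenomedullin system (RMS 0.056), Exoc3l and the growth factor gene Igf1, and nearest to Tie1 were the transcription factor gene Ikzf2 (RMS 0.059), Ifitm3 and the semaphorin receptor gene Plxnd1. The median RMS to all candidates was 0.57 for Tek and 0.59 for Tie1. For Kdr it was 0.49, for Flt1 0.84 and for Flt4 only 0.33, so a small RMS says less for Flt4. Tek and Tie1 were each other's nearest member (RMS 0.13). Nearest to Kdr were Plod2 (RMS 0.064), Rai14 and Btg2, and its nearest member was Vegfc (RMS 0.23). Nearest to Flt4 were Dpp8 (RMS 0.058), Fam76b and Mex3c. Nearest to Flt1 were P2ry14 (RMS 0.27), Vsir and Ptp4a3. These were chosen for their likeness to Flt1, so their high values in caudal replicate 2 and yolk sac replicate 3 follow from the choice. The nucleotide receptor gene P2ry14 was at 16.0, 29.1 and 15.4 TPM in caudal replicates 1 to 3 and at 13.6, 6.44 and 24.6 TPM in yolk sac replicates 1 to 3. Such profiles share their libraries and any difference in library composition.

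Of the other genes of the pathway, 70 were tested, and limma called 3 as higher in the caudal cells and 0 as higher in the yolk sac, against 0.347% and 0.0365% of all tested genes. The 3 were Nrp1, Dll4 and Bmx. Each was under 1 TPM in every yolk sac library, so that it entered the test through the caudal libraries alone. A gene admitted in that way had to differ in this direction, so the count and the p-values of the 3 describe them and are no support for a change of the pathway. With no filter on low values 0 of the pathway genes passed limma. The count was 0 when caudal replicate 3 was left out, and 1 without caudal replicate 1. It was also 1 without the first or the third yolk sac library. The median log2 difference of the 70 was 0.18, and 0.064 without yolk sac replicate 2. Without overlap, 14 of the 70 were higher in the caudal cells, the 3 called genes among them, and 4 in the yolk sac. The shares over all tested genes were 11.5% and 4.14%.

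Of 8 co-receptors, further ligands and ligand modifiers, 3 were tested and Nrp1 was called. Nrp1, neuropilin-1, is a co-receptor that binds Vegfa beside Kdr. It was at 20.9, 12.2 and 16.5 TPM in caudal replicates 1 to 3 and at 0.54, 0.62 and 0.52 TPM in yolk sac replicates 1 to 3 (log2 difference 3.46, SE 0.25, limma adjusted p = 0.00309). Of 15 alternatives 12 kept it past the threshold, and the adjusted p ran from 0.000353 to 0.125. Its exons overlap Mir1903 on the same strand. The other neuropilin gene, Nrp2, was at 0.88 to 2.09 TPM in the caudal cells and 1.70 to 3.32 TPM in the yolk sac, and Ptprb, the phosphatase that acts on Tek, was at 10.4 ± 1.85 (SD, n = 3) against 3.31 ± 1.41 TPM (SD, n = 3), with a limma adjusted p of 0.118. The remaining ligand genes were scarce. Pgf, the placental growth factor gene, was at 0.90 TPM at most, Angpt4 at 0.17 TPM, and Figf, the gene of VEGF-D, at 0.11 TPM.

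Of 43 genes of signal transduction, 40 were tested, Bmx was called and 39 did not pass. Bmx, a cytoplasmic tyrosine kinase of the Tec family, was at 1.93, 1.58 and 1.55 TPM in caudal replicates 1 to 3 and at 0.090, 0.050 and 0.039 TPM in yolk sac replicates 1 to 3. The log2 difference was 1.34 (SE 0.19, limma adjusted p = 0.0338). Bmx passed in 5 of 15 alternatives (adjusted p from 0.00204 to 0.291), and it did not pass when yolk sac replicate 2 was left out (adjusted p = 0.0672). The list had 26 positive and 14 negative differences, or 65% positive against 62% of all tested genes. Its median was 0.11, and 0.015 without yolk sac replicate 2, against 0.09 and 0.016 over all tested genes.

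Of 10 oxygen-sensing genes that act upstream of Vegfa, 9 were tested and 0 passed limma in either direction, while 1 had an unadjusted p under 0.05. That 1 was Epas1. Epas1, the gene of HIF-2 alpha, was at 6.37, 6.07 and 6.29 TPM in caudal replicates 1 to 3 and at 1.24, 3.54 and 1.31 TPM in yolk sac replicates 1 to 3 (log2 difference 1.34, SE 0.31, adjusted p = 0.17). It passed when yolk sac replicate 2 was left out (adjusted p = 0.034), and in 2 of 15 alternatives in all (adjusted p from 0.00299 to 0.464). Hif1a, the gene of HIF-1 alpha, had a caudal mean of 28.7 ± 4.08 TPM (SD, n = 3) and a yolk sac mean of 38.4 ± 7.23 TPM (SD, n = 3, limma adjusted p = 0.583), and its log2 difference of -0.40 was -0.26 without yolk sac replicate 2. Vhl, which targets both factors for destruction, was at 12.2 ± 4.498 and 6.97 ± 2.93 TPM (adjusted p = 0.582), with a log2 difference of 0.73, or 0.48 without yolk sac replicate 2.

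Among 16 genes known to respond to VEGF or to mark the tip cells of sprouting vessels, 12 were tested and Dll4 was called, while 11 did not pass. Dll4, a Notch ligand that VEGF induces, was at 8.36, 4.70 and 6.46 TPM in caudal replicates 1 to 3 and at 0.91, 0.54 and 0.50 TPM in yolk sac replicates 1 to 3 (log2 difference 2.16, SE 0.26, limma adjusted p = 0.0199). It passed in 8 of 15 alternatives, with adjusted p between 0.00235 and 0.168, and Gm14207 overlaps it on the opposite strand. The list had 11 positive differences of 12 (91.7%, against 62% of all tested genes). Its median was 0.66, or 0.47 without yolk sac replicate 2, against 0.09 and 0.016 over all tested genes. Values did not overlap for 6 of the 12, Dll4 among them, each higher in the caudal cells, against 11.5% of tested genes. Esm1, a tip cell marker, was at 0.47 TPM at most. Of 8 genes of FOXO1 and of the targets downstream of Tek, 6 were tested. Of these 0 passed limma in either direction, while 1 had an unadjusted p under 0.05. The differences were positive for 2 and negative for 4 (33.3% positive, against 62% of all tested genes). Their median was -0.13, or -0.12 without yolk sac replicate 2. Without overlap, 2 of the 6 were higher in the yolk sac, against 4.14% of tested genes. The survivin gene Birc5, which had the smallest p of that list, had means of 26.0 ± 3.10 TPM (SD, n = 3, caudal) and 37.6 ± 3.09 TPM (SD, n = 3, yolk sac, log2 difference -0.52, limma adjusted p = 0.391). Ccnd1, the cyclin D1 gene, and Icam1, an adhesion molecule gene, had log2 differences of -0.60 and -0.25. That of Ccnd1 was -1.04 without yolk sac replicate 2 (limma adjusted p = 0.235), and it passed in 1 of 15 alternatives (lowest adjusted p 0.0306). Exons of Hif1a, Ccnd1 and Icam1 overlap other annotated genes.

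**Figure D4:**
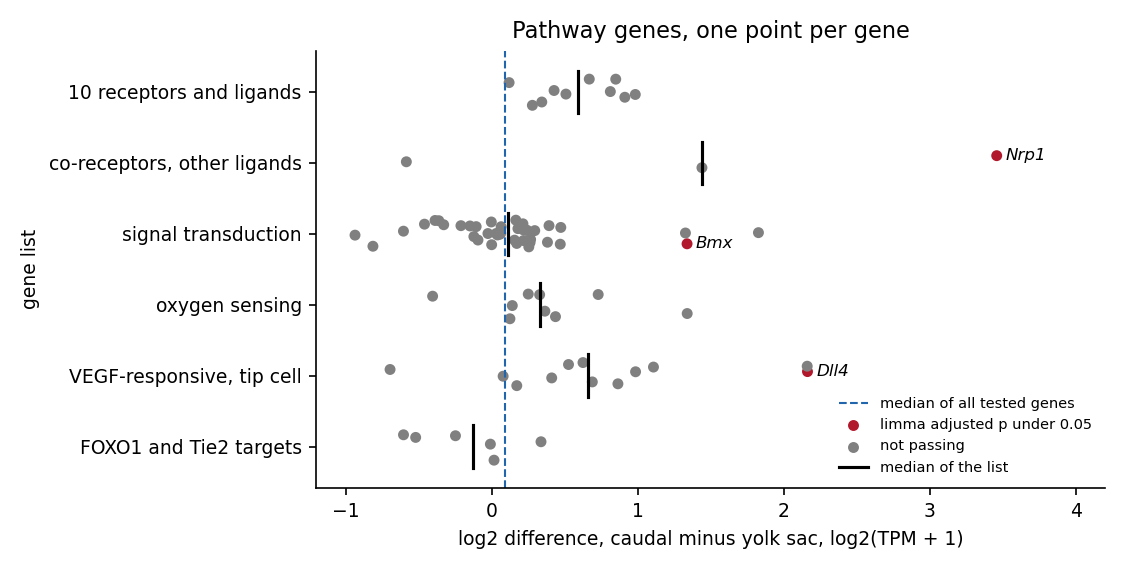
Log2 difference (horizontal axis, yolk sac subtracted from caudal, log2(TPM + 1) scale) for each tested gene of 6 lists, with 1 point per gene, red where limma's adjusted p was under 0.05, black bars for list medians and a dashed line for the median of all tested genes. Nrp1, Dll4 and Bmx are the red points, and the 10 receptors and ligands lie between 0.12 and 0.98.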

How the data were processed

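Total RNA of 6 libraries (3 per tissue) was measured. Per the submitters' processing notes, HISAT2 and StringTie were used with mm10. The sources used here give no versions and no annotation release. The deposited TPM column, per the file headers, was treated as signal, because assembled loci summed to 1000000 and annotated genes to a further 555230 to 684549. Annotated rows were kept, date-like symbols (27 IDs) restored by gene ID, and values summed per symbol. Read depth is unknown, so no counting interval is given.

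Tissues were compared on log2(TPM + 1) with limma 3.58.1 (R 4.3.3, trended empirical Bayes, two-sided, Benjamini-Hochberg over all genes). Tested were genes that reached 1 TPM in 3 libraries, with 0.05 as threshold, after a check on simulated data. Fold changes of weak genes are understated on this scale. Single values had exact permutation tests.

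Members and lists were chosen with earlier results of these data known. Named were all members, the genes of each list that passed or else the 3 of smallest p, Hlf, Kit and Ptprc, and the 3 genes nearest each receptor. Nrp2, Ptprb, Pgf, Angpt4, Figf and Esm1 were added after their values were seen. Alternatives were pseudocounts of 0.1 and 5, filters, scalings, a replicate block, array weights and left-out libraries. Coordinates and overlaps are from GENCODE M21 (GRCm38, the assembly of mm10).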

Additional observations from a re-analysis of the deposited data

How the results depend on the processing

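No member passed limma in any of 16 alternatives, and of 156 member values 154 kept their direction. The exceptions were Flt1 against yolk sac replicate 3 alone (-0.61, spread from the caudal libraries) and Vegfb, which was -0.075 without caudal replicate 1 and up to 0.37 when another library was left out. The lowest adjusted p of a member was 0.0585 (Tie1 with array weights, where caudal replicate 2 and yolk sac replicate 3 weighed most). A mean of at least 10 TPM was reached by 6 members, and only these were tested. Of 69 alternative ratio values 3 changed direction. The sign of the ratios to marker lists was fixed by their reference, so their keeping it is no support. Flt1 to Kdr was 0.24 without caudal replicate 1 and 0.51 when yolk sac replicate 3 was left out, in a range from -0.64 to 0.51 over left-out libraries. Angpt1 to Angpt2 was -0.13 without yolk sac replicate 2, in a range from -0.13 to 0.33. The causes were not tested.

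With all libraries 57 genes passed as higher in the caudal cells and 6 in the yolk sac. The counts were 37 and 2 with a pseudocount of 5, 8 and 0 among genes with a mean of 10 TPM, 774 and 182 with array weights, and 13 and 0 without yolk sac replicates 1 and 2 together. With no filter limma called 0 and 0, and 2547 genes were under an unadjusted p of 0.05. Leaving out 1 library gave 2 to 55 and 0 to 6. For the pathway genes, 3 passed as higher in the caudal cells with all libraries, 0 with no filter or among genes with a mean of 10 TPM, 14 with array weights (and 1 higher in the yolk sac), 1 without yolk sac replicates 1 and 2, and 0 to 3 when 1 library was left out. Libraries with the same replicate number had correlations of 0.019, -0.021 and -0.0032 in their deviations from the tissue means. These values gave no sign of pairing by replicate number, but do not show whether such libraries shared an origin. With the number as a block 0 genes passed in either direction, of the pathway genes too, and 1611 genes were under an unadjusted p of 0.05 by limma. The causes were not tested.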
